A study of Mus musculus with 6 samples.

Results

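The PPP family of serine/threonine protein phosphatases was followed through its subunits, taken as every protein-coding gene in the count table whose symbol starts with Ppp1 to Ppp6 followed by c or r. This rule gave 75 genes of the 54532 in the table: 3 catalytic and 40 regulatory subunits of PP1, 16 subunits of PP2A, 5 of PP3 (calcineurin), 6 of PP4, 1 of PP5 and 4 of PP6. Of these members, 53 passed the filter on low counts and were tested, among 12269 genes tested in all. The libraries came from BV2, a mouse microglial cell line grown without any labelled stimulus in medium with serum and antibiotics. There were 3 SMEK1 knockdown libraries and 3 WT libraries, lettered A to C in each group. SMEK1 is the protein made from Ppp4r3a, so the knockdown was aimed at a member. The genotype labels contrast knockdown with WT, whereas the design text of the series lists both sets as knockdown derivatives of BV2. The construct, whether WT cells carried a control construct and whether the knockdown cells are 1 clone or a pool were not given in the sources used here, nor is it said that libraries are separate cultures. Each p-value therefore measures the spread between these libraries, which may be technical, and a difference between cell lines cannot be told apart from the knockdown.

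PPP phosphatases remove phosphate from serine and threonine with a small set of closely related catalytic subunits. A catalytic subunit gains its targets by joining regulatory subunits: PP1 binds many unrelated partners, PP2A is built as a catalytic, a scaffold and a regulatory subunit, and calcineurin is switched on by calcium and calmodulin through its B subunit. PP4 and PP6 are relatives of PP2A with regulatory subunits of their own, and SMEK1 and its paralogue SMEK2 (Ppp4r3b) are the R3 subunits that lead PP4 to substrates.

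Each knockdown library held 18627425 to 21131557 counts and each WT library 18036591 to 18708438, and members took 0.476% to 0.495% of the counts in knockdown libraries and 0.465% to 0.481% in WT. Values per library are CPM, read counts scaled to a common library size by TMM, and run in the order A, B, C. The target, Ppp4r3a, was checked first: its 3 knockdown libraries had 2.51, 5.42 and 4.25 CPM, against 18.1, 13.5 and 15.3 CPM in WT. Of 12 markers of microglia and macrophages 9 were tested, with 3 higher and 3 lower in knockdown, and their summed level was 2489 to 2708 CPM in knockdown and 2621 to 2855 CPM in WT. Of the markers that define microglia in the brain, Sall1 had 0 counts, P2ry12 averaged 0 CPM in knockdown and 0.0559 CPM in WT, and Cx3cr1 averaged 0.46 CPM in knockdown and 0.224 CPM in WT. Of 4 oligodendrocyte markers Mog and Olig2 had 0 counts, and the list summed to 7.15 to 7.26 CPM in knockdown and 2.45 to 2.70 CPM in WT, nearly all of it Mbp. Neuron markers summed to 0.80 to 1.81 CPM in knockdown and 0.418 to 0.706 CPM in WT, with Snap25 and Syt1 at 0 counts, and astrocyte, endothelial and fibroblast lists stayed at or below 0.271 CPM in each library. The part of these marker levels in the results that follow was not tested. In bulk RNA, fewer cells of a type and less RNA per cell cannot be told apart.

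The promoters of a few members are shown because SMEK proteins are known, from mouse liver, to act on the CREB coactivator CRTC2, and CREB binds the palindrome TGACGTCA, the cAMP response element. RefSeq promoters (GRCm38.p6, 250 bases before to 50 after the start) were found for 59 members, with 72 promoters among them. The palindrome stood in 5 of the 72 (6.94%), in 4 members, against 1.79% of all 32851 mouse promoters. Overlapping promoters of Ppp2r2d hold the same site, which is thus counted more than once among the 5. The short motif TGACG, which the palindrome contains, stood on either strand in 43.1% of member promoters and 20.8% of all promoters, while the median GC content was 63.0% in member promoters and 52.7% in all. The 4 members with the palindrome are shown with the promoter of Ppp4r3a, which holds the shorter motif alone. Capitals mark the palindrome and the short motif, the short one also as its reverse complement where it lies on the other strand, and each sequence is written 5′ to 3′ on the strand of its gene.
Ppp4r3a, chr12:101083653-101083952, minus strand: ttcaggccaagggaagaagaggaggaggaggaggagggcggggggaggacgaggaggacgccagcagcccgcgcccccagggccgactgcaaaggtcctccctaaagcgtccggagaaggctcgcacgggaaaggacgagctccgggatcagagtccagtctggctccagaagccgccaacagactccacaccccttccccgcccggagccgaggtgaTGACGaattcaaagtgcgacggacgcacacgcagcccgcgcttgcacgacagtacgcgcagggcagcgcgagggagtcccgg
Ppp2ca, chr11:52098574-52098873, plus strand: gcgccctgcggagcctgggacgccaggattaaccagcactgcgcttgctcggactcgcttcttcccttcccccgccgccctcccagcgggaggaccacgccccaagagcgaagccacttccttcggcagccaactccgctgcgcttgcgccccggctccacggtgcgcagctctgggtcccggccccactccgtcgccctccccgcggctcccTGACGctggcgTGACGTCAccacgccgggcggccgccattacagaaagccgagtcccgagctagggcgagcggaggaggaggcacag
Ppp1r15a, chr7:45526219-45526518, minus strand: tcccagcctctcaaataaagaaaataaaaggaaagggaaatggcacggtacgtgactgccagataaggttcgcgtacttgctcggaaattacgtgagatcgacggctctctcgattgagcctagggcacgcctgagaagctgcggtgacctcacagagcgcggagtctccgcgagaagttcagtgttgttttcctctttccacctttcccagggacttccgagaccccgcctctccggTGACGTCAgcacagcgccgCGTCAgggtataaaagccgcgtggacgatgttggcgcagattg
Ppp1r12c, chr7:4501631-4501930, minus strand: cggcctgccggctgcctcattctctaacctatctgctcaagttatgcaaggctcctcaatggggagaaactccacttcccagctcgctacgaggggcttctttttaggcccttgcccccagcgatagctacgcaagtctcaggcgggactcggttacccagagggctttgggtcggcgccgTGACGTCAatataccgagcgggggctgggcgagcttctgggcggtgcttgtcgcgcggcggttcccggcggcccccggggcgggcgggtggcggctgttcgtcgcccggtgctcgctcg
Ppp2r2d, chr7:138846109-138846408, plus strand: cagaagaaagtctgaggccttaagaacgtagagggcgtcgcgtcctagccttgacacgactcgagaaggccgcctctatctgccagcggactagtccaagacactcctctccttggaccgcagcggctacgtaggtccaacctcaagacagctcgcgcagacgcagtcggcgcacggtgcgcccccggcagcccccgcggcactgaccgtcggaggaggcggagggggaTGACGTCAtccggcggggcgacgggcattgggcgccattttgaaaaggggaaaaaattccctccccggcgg
The palindrome began 26 bases before the start in Ppp2ca, 12 in Ppp1r15a, 69 in Ppp1r12c and 21 in Ppp2r2d. These genes did not move together. The log2 fold change of knockdown over WT was 0.68 for Ppp1r15a, which passed the test. It was 0.22 for Ppp2ca, -0.02 for Ppp1r12c and -0.26 for Ppp2r2d, none of which passed. The share of member promoters with the other motifs searched, both strands included, was 68.1% for the GC box GGGCGG (35.7% of all), 31.9% for CCAAT (37.4% of all), 11.1% for the ETS motif CCGGAAG (8.86% of all), 6.94% for the YY1 motif AAGATGG (6.34% of all), 4.17% for the E box CACGTG (7.15% of all), 2.78% for the NRF1 motif GCGCATGC (2.71% of all) and 2.78% for the ATF4-like motif TGATGNAA (3.97% of all). Such matches describe letters in a window and are not binding sites.

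Of the 53 members tested, 5 were called higher and 8 lower in knockdown at an adjusted p under 0.05 in edgeR's quasi-likelihood test, adjusted by Benjamini-Hochberg. That is 9.43% higher and 15.1% lower, against a background of 20.5% of all tested genes called higher and 19.6% called lower. Members were thus called no more often than genes at large. The median log2 fold change was -0.07 over the 53 members and 0.01 over all genes tested. Knockdown and WT libraries did not overlap for 11 of the 53 members with knockdown higher and for 14 of the 53 with knockdown lower. Among all 12269 genes tested this held for 3270 (26.7%) and 2980 (24.3%). The risen members were Ppp1cc, Ppp1r15a, Ppp1r26, Ppp1r37 and Ppp1r2, all of PP1. PP1 supplied 3 catalytic and 22 regulatory subunits of the 53 tested. In PP2A, Ppp2r5c and Ppp2ca were higher too, with edgeR adjusted p-values of 0.05001 and 0.0593, above the threshold. The fallen members were Ppp1r12b, Ppp1r13l, Ppp1r14b and Ppp1r18 of PP1, Ppp2cb and Ppp2r3c of PP2A, and Ppp4r3a and Ppp4r3b of PP4. Leaving out knockdown A gave 7 higher and 13 lower. Scaling by library totals, which moved the median of all genes to 0.17, gave 14 higher and 6 lower.

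**Figure D1:**
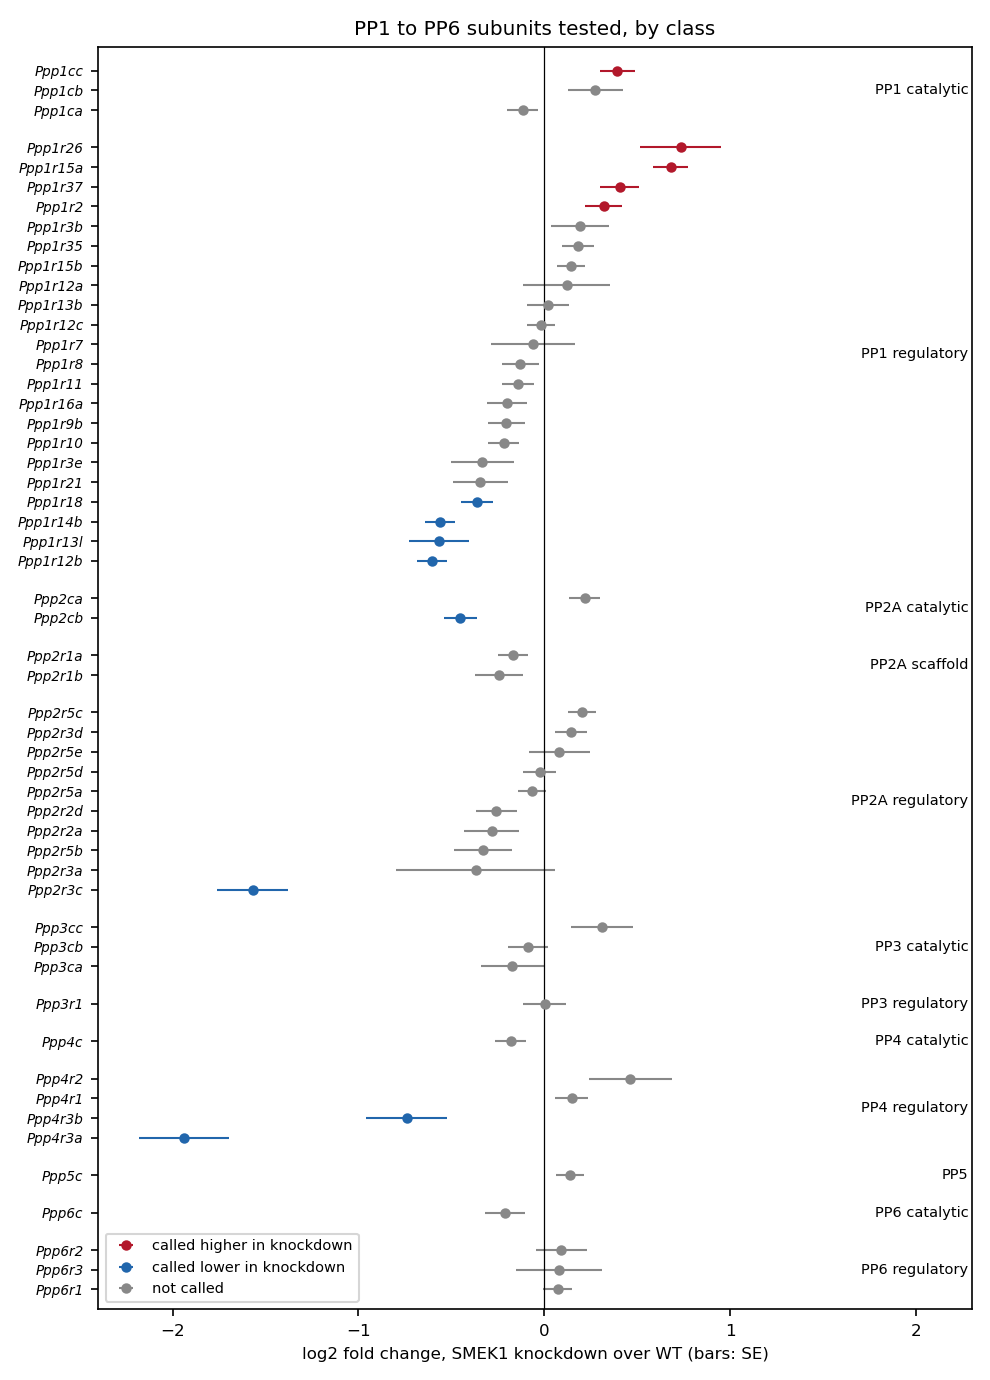
Log2 fold change of SMEK1 knockdown over WT (x axis, bars are the SE) for each of the 53 tested members, grouped by class, with 3 libraries per group. Ppp4r3a (-1.94) and Ppp2r3c (-1.57) lie far to the left of the other members, which fall between -0.74 and 0.73.

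All 11 catalytic subunits were tested, with 1 higher (Ppp1cc) and 1 lower (Ppp2cb). Per length, in deposited FPKM, Ppp1ca was the most abundant of them, at 387 ± 34.1 in knockdown and 422 ± 13.3 in WT (SD, n = 3 each). At the other end of the order stood Ppp3ca, at 1.51 ± 0.23 FPKM in knockdown and 1.72 ± 0.327 FPKM in WT. Summed by family, PP1 held 73.4% of catalytic FPKM in knockdown and 72.0% in WT, and PP2A 11.6% in knockdown and 13.0% in WT. PP4 held 7.29% in knockdown and 7.92% in WT, and PP5 4.95% in knockdown and 4.30% in WT. PP3 held 1.501% in knockdown and 1.37% in WT, and PP6 1.28% in knockdown and 1.42% in WT. Each of these shares is the mean of the shares in the 3 libraries of a group, given without its spread. In both groups PP1 led, then PP2A, PP4 and PP5. The deposited FPKM of Ppp1ca rest on a gene length of 1379 bases, against 2520 exon bases in the GENCODE M21 annotation. With the longer length its FPKM, its share within PP1 and the share of PP1 would be lower.

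**Figure D2:**
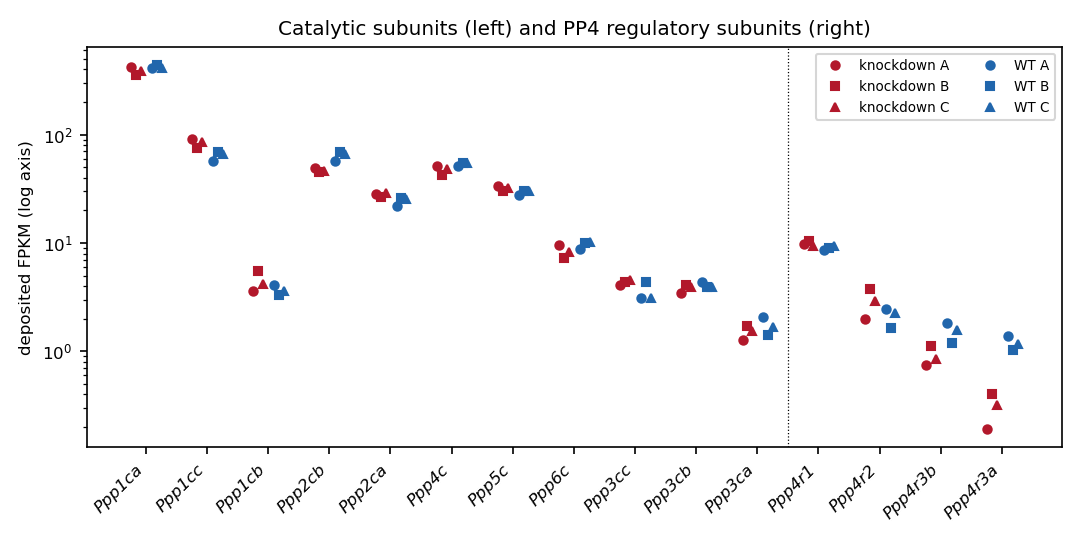
Deposited FPKM (log axis) of the 11 catalytic subunits and the 4 PP4 regulatory subunits with counts, in each of 3 knockdown (red) and 3 WT (blue) libraries. Ppp1ca is the highest at 355 to 423 FPKM in knockdown and 414 to 437 FPKM in WT, and Ppp4r3a is the lowest in both groups.

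The gamma catalytic subunit of PP1, Ppp1cc, had 309, 266 and 295 CPM in knockdown, against 195, 239 and 228 CPM in WT. Each knockdown library lay above each WT library. The log2 fold change was 0.39 (SE 0.09, edgeR quasi-likelihood adjusted p = 0.0061). The alpha subunit Ppp1ca had 581, 503 and 532 CPM in knockdown, against 573, 606 and 573 CPM in WT, with overlapping groups and a log2 fold change of -0.12 (SE 0.08). Ppp1cb, the beta subunit, had 39.5, 61.5 and 45.9 CPM in knockdown and 45.1, 36.6 and 39.9 CPM in WT. Its log2 fold change was 0.27 (SE 0.15, edgeR adjusted p = 0.161, and 0.0393 without knockdown A). A transcribed pseudogene, Ppp1ccb, carries the coding sequence of Ppp1cc with 969 of 969 bases identical in GENCODE M21. Reads of that stretch therefore cannot be told apart between the pair, and how they were assigned was not given in the sources used here.

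PP2A has a catalytic subunit from either of a pair of genes, Ppp2ca (alpha) and Ppp2cb (beta), whose coding sequences are 81.7% identical. Ppp2cb fell, with 72.3, 67.5 and 67.9 CPM in knockdown against 84.1, 103 and 97.5 CPM in WT, a log2 fold change of -0.45 (SE 0.09, edgeR quasi-likelihood adjusted p = 0.0018). Ppp2ca had 212, 206 and 219.8 CPM in knockdown, against 164, 194 and 191 CPM in WT, at a log2 fold change of 0.22 (SE 0.08, edgeR adjusted p = 0.0593). Its groups did not overlap, yet the test did not pass. Ppp2ca passed under 6 of the 21 other settings, among them without knockdown B (edgeR adjusted p = 0.0309).

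Since FPKM are per length, isoforms of a family can be added within a library and given as shares, which no scaling between libraries can change. The level of a share depends on the deposited gene lengths. These are 7490 bases for Ppp2ca against 1469 for Ppp2cb, and 13162 for Ppp4r3a against 5694 for Ppp4r3b. In CPM the mean of Ppp2ca stood above that of Ppp2cb in both groups, and Ppp4r3a above Ppp4r3b in WT, the reverse of their order in FPKM. Ppp2ca made up 36.5%, 37.4% and 38.8% of PP2A catalytic FPKM in knockdown, against 27.7%, 27.1% and 27.8% in WT. The share was 10.1 percentage points higher in knockdown, and the groups lay far apart compared with their spread (37.6 ± 1.15% in knockdown and 27.5 ± 0.386% in WT, SD, n = 3 each). Ppp1cc made up 17.5%, 17.3% and 18.1% of PP1 catalytic FPKM in knockdown, against 11.97%, 13.6% and 13.7% in WT. Ppp1ca held 81.4 ± 0.371% in knockdown and 86.1 ± 0.889% in WT. For both genes the groups did not overlap. Among calcineurin catalytic subunits Ppp3cb held 39.5 ± 0.599% in knockdown and 43.9 ± 2.82% in WT without overlap, while Ppp3ca and Ppp3cc overlapped. Ppp4r3a held 24.7 ± 3.95% of the R3 pair in knockdown and 43.9 ± 2.10% in WT, and the rest was Ppp4r3b. As Ppp4r3a was the target of the knockdown, a lower share of it is what the design aimed at. The PP2A scaffold was 97.7 ± 0.445% Ppp2r1a in knockdown and 97.5 ± 0.17% in WT. By a two-sided exact permutation test each share without overlap gave p = 0.1, the smallest that 3 against 3 libraries allow, and 0.171 after adjustment over the 12 shares compared. No share could pass a threshold of 0.05 in this design.

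**Figure D3:**
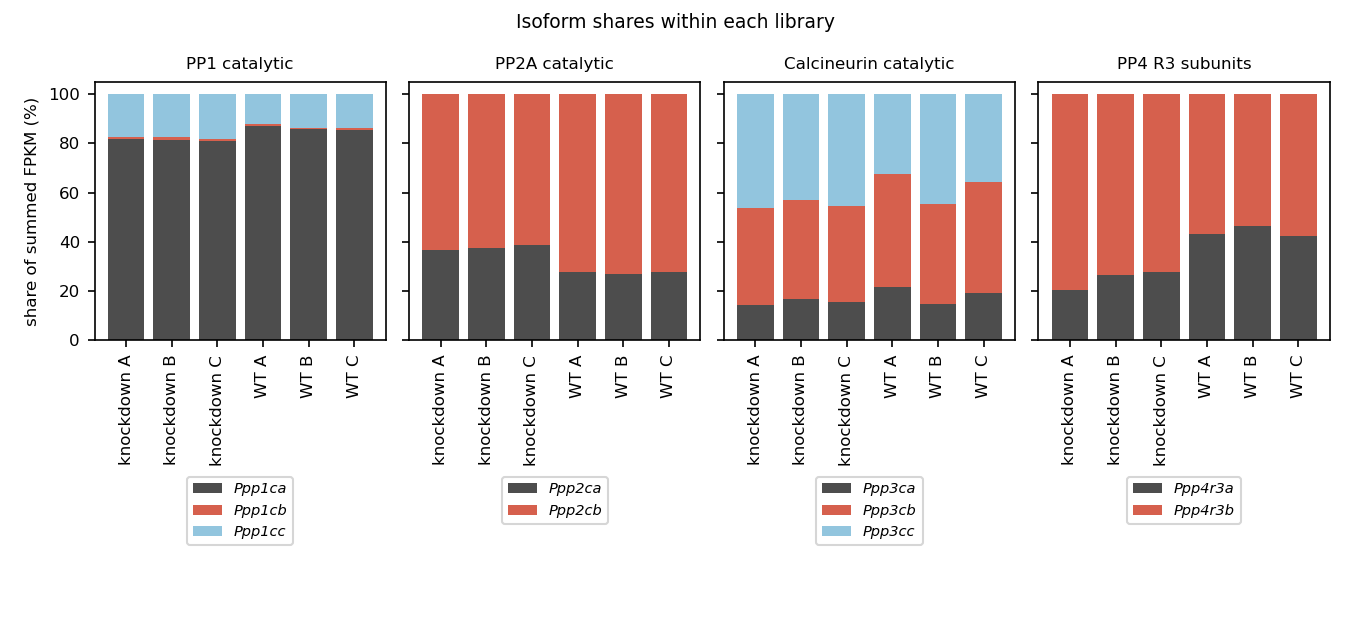
Share of summed FPKM (y axis, percent) that each isoform takes within its family, as stacked bars for 3 knockdown libraries and then 3 WT libraries. Ppp2ca takes 36.5% to 38.8% in knockdown and 27.1% to 27.8% in WT, and Ppp4r3a takes 20.2% to 27.5% in knockdown and 42.4% to 46.3% in WT.

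In total the PP2A catalytic pair summed to 74.8 ± 3.18 FPKM in knockdown and 88.6 ± 8.49 FPKM in WT (SD, n = 3 each), with no overlap (exact permutation p = 0.1, 0.167 over 5 sums compared). The PP1 catalytic subunits summed to 475 ± 40.5 FPKM in knockdown and 490.1 ± 17.9 FPKM in WT, where the groups overlapped (exact permutation p = 0.6).

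Of the 40 PP1 regulatory subunits, 22 were tested, and 4 were higher, 4 lower and 14 not called. Ppp1r15a (GADD34), the stress-induced subunit that brings PP1 to the translation factor eIF2 alpha, had 106, 88.5 and 89.5 CPM in knockdown against 61.3, 61.5 and 54.7 CPM in WT. The groups were well apart, and the log2 fold change was 0.68 (SE 0.09, edgeR quasi-likelihood adjusted p = 0.000164). Its constitutive counterpart Ppp1r15b (CReP) had 86.0, 86.5 and 83.8 CPM in knockdown against 79.8, 78.3 and 73.9 CPM in WT. These groups did not overlap either, but the log2 fold change of 0.14 (SE 0.07) did not pass (edgeR adjusted p = 0.145).

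Ppp1r37, a leucine-rich-repeat protein that binds PP1, had 65.9, 51.7 and 53.3 CPM in knockdown against 41.7, 43.5 and 43.8 CPM in WT. It rose by 0.40 on the log2 scale (SE 0.10, edgeR adjusted p = 0.0091). Inhibitor-2 (Ppp1r2), which binds free PP1 catalytic subunits, had 66.6, 66.6 and 60.6 CPM in knockdown and 45.1, 55.1 and 55.3 CPM in WT, a log2 fold change of 0.32 (SE 0.10, edgeR adjusted p = 0.0221). Without WT A this call was lost (edgeR adjusted p = 0.0766). It was also lost with the library letter as a block and in limma on log2(FPKM + 1) without a filter. Ppp1r2 lies on chromosome 16, where the median of 377 tested genes was itself 0.40, so it stood no higher than its chromosome. Ppp1r26 was scarce, with 6.48, 5.91 and 4.38 CPM in knockdown against 3.78, 3.16 and 3.12 CPM in WT. Its log2 fold change was 0.73 (SE 0.22, edgeR adjusted p = 0.0184). Leaving out knockdown A, WT B or WT C ended that call, with edgeR adjusted p-values of 0.0557, 0.0528 and 0.0731, as did limma on log2(FPKM + 1), with 0.0604. The library letter as a block and the other limma fits on FPKM ended it as well.

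Ppp1r14b, a small PP1 inhibitor of the CPI-17 family, was the most abundant member per length, at 558 ± 24.1 FPKM in knockdown and 829 ± 40.1 FPKM in WT (SD, n = 3 each). These FPKM rest on a deposited gene length of 919 bases, against 1526 exon bases in GENCODE M21. It had 533, 504 and 516 CPM in knockdown against 733, 807 and 754 CPM in WT. Its log2 fold change was -0.56 (SE 0.08, edgeR quasi-likelihood adjusted p = 0.000179). The myosin phosphatase targeting subunit Ppp1r12b (MYPT2) had 70.3, 73.5 and 62.6 CPM in knockdown against 106, 103 and 105 CPM in WT, and fell by 0.60 on the log2 scale (SE 0.08, edgeR adjusted p = 0.000139). Its relatives Ppp1r12a (log2 fold change 0.12, SE 0.23) and Ppp1r12c (-0.02, SE 0.07) had overlapping groups. Phostensin (Ppp1r18), which binds actin, had 181, 158 and 149.5 CPM in knockdown against 208, 216 and 204 CPM in WT, a log2 fold change of -0.36 (SE 0.09, edgeR adjusted p = 0.0057). Ppp1r13l (iASPP), an inhibitor of p53, had 8.99, 7.29 and 9.17 CPM in knockdown and 14.03, 11.5 and 12.1 CPM in WT. Its log2 fold change was -0.57 (SE 0.16, edgeR adjusted p = 0.0154), and the call was lost without knockdown B (0.0613), without WT A (0.0542) and with library totals (0.0689). The library letter as a block and limma on log2(FPKM + 1) without a filter also ended the call of Ppp1r13l. The related Ppp1r13b (ASPP1) had a log2 fold change of 0.02.

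**Figure D4:**
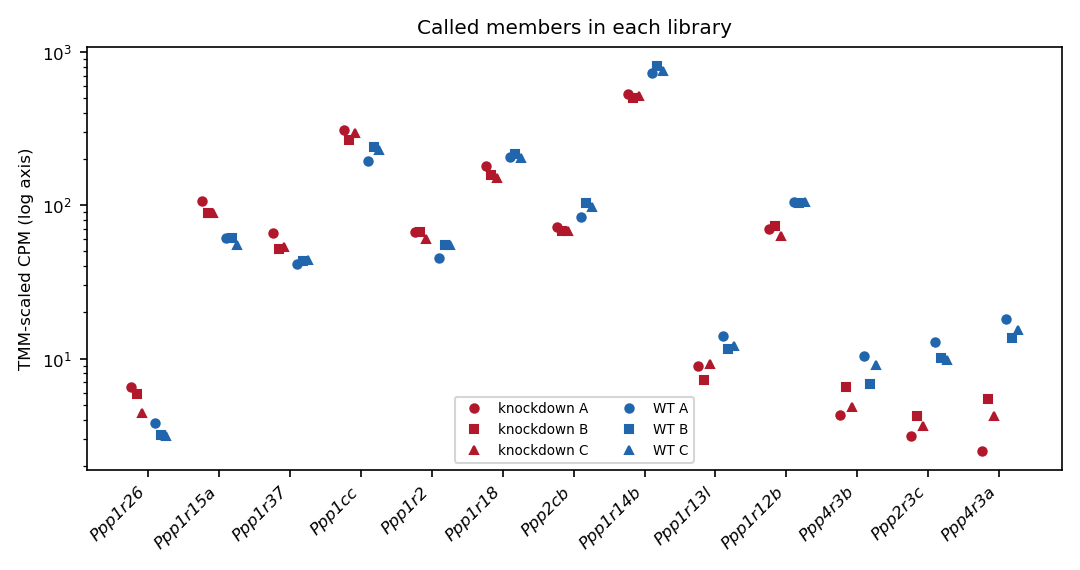
TMM-scaled CPM (log axis) of the 13 called members in each of 3 knockdown (red) and 3 WT (blue) libraries, ordered by fold change. In each of the 13 genes the knockdown and WT libraries do not overlap, and the widest gap is that of Ppp4r3a, at 2.51 to 5.42 CPM in knockdown and 13.5 to 18.1 CPM in WT.

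The 14 PP1 regulatory subunits that were not called had log2 fold changes of -0.35 to 0.19. They include Ppp1r10 (PNUTS), a nuclear targeting subunit, at -0.22 (edgeR adjusted p = 0.0532), inhibitor-3 (Ppp1r11) at -0.14, the nuclear inhibitor Ppp1r8 (NIPP1) at -0.13, Ppp1r7 (SDS22) at -0.06 and spinophilin (Ppp1r9b) at -0.20. Ppp1r10 passed without WT A (edgeR adjusted p = 0.0398), and Ppp1r9b without knockdown A (0.0063). The glycogen-targeting subunits Ppp1r3b and Ppp1r3e had values of 0.19 and -0.33. Ppp1r3e lies on chromosome 14 past 40 Mb, where 288 tested genes had a median of -0.39. These 7 genes, and Ppp1r12a, Ppp1r12c, Ppp1r13b and Ppp1r15b above, were named for their known roles after their values were seen.

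Another 18 PP1 regulatory subunits stayed below the filter. Over all 75 members 22 did so, 12 of them with 0 counts in all 6 libraries, 7 with 1 to 10 counts in sum and 3 with more. A sum of 0 allows up to 3 counts, or 0.047 CPM in knockdown and 0.0574 CPM in WT, counting error only. The genes with 0 counts were Ppp1r14c, Ppp1r14d, Ppp1r17, Ppp1r1c, Ppp1r36, Ppp1r3a, Ppp1r3c, Ppp1r3d, Ppp1r42, Ppp2r2b, Ppp3r2 and Ppp4r4. Ppp1r3a and Ppp1r3c target PP1 to glycogen in muscle and liver, and Ppp2r2b is a brain form of the B55 subunit. The PP1 inhibitor Ppp1r1b (DARPP-32), known from striatal neurons, had 3, 0 and 5 counts in knockdown and 0 in each WT library. Ppp2r2c had 0, 2 and 2 counts in knockdown and 0 in each WT library. Ppp1r27 had 14, 7 and 11 counts in knockdown and 4, 6 and 2 in WT, Ppp1r3f 4, 11 and 7 in knockdown and 1, 6 and 5 in WT, and Ppp1r1a (inhibitor-1) 3, 4 and 1 in knockdown and 8, 4 and 5 in WT. The remaining 5, Ppp1r14a, Ppp1r16b, Ppp1r32, Ppp1r3g and Ppp1r9a, had at most 6 counts in sum over knockdown libraries and 3 over WT libraries. No test was made of these genes.

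Neither PP2A scaffold subunit was called. Ppp2r1a, the alpha scaffold on which most PP2A is assembled, had 493, 435 and 442 CPM in knockdown against 517, 513 and 511 CPM in WT. Its groups did not overlap, and the log2 fold change was -0.17 (SE 0.08, edgeR adjusted p = 0.112, 0.0351 without knockdown A). Ppp2r1b had a log2 fold change of -0.24 (SE 0.13, edgeR adjusted p = 0.149), and 22.2% of its exon bases overlap the gene Sik2 on the other strand.

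Of the 12 PP2A regulatory subunits 10 were tested and 1 was called. Ppp2r3c, a B'' subunit also named G5PR, had 3.14, 4.22 and 3.61 CPM in knockdown against 12.7, 10.1 and 9.77 CPM in WT. Its highest knockdown library was below 5 CPM and its lowest WT library above 9 CPM. The log2 fold change was -1.57 (SE 0.19, edgeR quasi-likelihood adjusted p = 7.04e-05), and 33.6% of the WT mean remained, against 25.9% for Ppp4r3a. Besides Ppp4r3a it was the one member called under each of the 21 other settings, the test against a fold of 1.5 included. Both genes lie on chromosome 12, Ppp2r3c at chr12:55278991-55302998 and Ppp4r3a at chr12:101039409-101083702, where the median log2 fold change of 440 tested genes was 0.02. Of the exon bases of Ppp2r3c, 4.1% overlap 1110008L16Rik on the other strand.

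The B55 subunits Ppp2r2a and Ppp2r2d, which direct PP2A in mitotic exit, had log2 fold changes of -0.28 (SE 0.15) and -0.26 (SE 0.11), with edgeR adjusted p-values of 0.15 and 0.0773. Without knockdown B these became 0.0361 and 0.048. Ppp2r2d did not overlap between groups, with 27.6, 29.9 and 24.4 CPM in knockdown and 30.9, 33.5 and 33.6 CPM in WT. Ppp2r2a lies on chromosome 14, whose 409 tested genes had a median of -0.32. Past 40 Mb, where Ppp2r2a lies, the median of 288 tested genes was -0.39. Among the B56 subunits, the gamma form Ppp2r5c had 110.2, 123 and 115 CPM in knockdown against 99.1, 104 and 99.1 CPM in WT. Its groups did not overlap and its log2 fold change was 0.20 (SE 0.08), but the adjusted p of 0.05001 by edgeR lay just above the threshold (0.0176 without knockdown A). The other B56 forms had log2 fold changes of -0.07 for Ppp2r5a, -0.33 for Ppp2r5b, -0.03 for Ppp2r5d and 0.08 for Ppp2r5e. Ppp2r5b passed without knockdown A (edgeR adjusted p = 0.0403). Exons of Ppp2r5d share 3.56% of their bases with Mea1 on the other strand, which had 19510 counts. The remaining B'' genes, Ppp2r3a at 0.524 ± 0.205 CPM in knockdown and 0.684 ± 0.18 CPM in WT and Ppp2r3d at 56.4 ± 1.21 CPM in knockdown and 51.1 ± 3.597 CPM in WT (SD, n = 3 each), had log2 fold changes of -0.37 (SE 0.43) and 0.14 (SE 0.09).

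No calcineurin subunit was called by edgeR. Among all tested subunits of calcineurin, PP5, PP6 and the PP2A scaffold, 0 had an unadjusted p under 0.05, and 0 were called by DESeq2 or limma-voom. Other scalings did call some of them higher, namely Ppp5c with upper quartile scaling (edgeR adjusted p = 0.0456) and Ppp5c (0.00197), Ppp6r1 (0.0132) and Ppp3cc (0.0385) with library totals. After seeing the data, the main axis of the libraries’ deviations from their group means was also tried as a covariate. With it Ppp2r1a, Ppp2r1b and Ppp6c were called lower and Ppp3cc higher. This covariate takes up spread within groups by construction, and 56.0% of all tested genes were then called. Ppp3ca, Ppp3cb and Ppp3cc, the alpha, beta and gamma catalytic A subunits, had log2 fold changes of -0.17 (SE 0.17), -0.09 (SE 0.11) and 0.31 (SE 0.17), and all overlapped between groups. Ppp3cc had 12.1, 13.3 and 13.7 CPM in knockdown and 9.28, 13.1 and 9.24 CPM in WT, so WT B lay among the knockdown libraries. Without WT B its adjusted p was 0.0425 by edgeR, against 0.163 with it. Both Ppp3cb and Ppp3cc lie on chromosome 14, in different stretches of it: the 121 tested genes up to 40 Mb, where Ppp3cb lies, had a median of -0.03, and the 288 past 40 Mb, where Ppp3cc lies, one of -0.39. The calcium-binding B subunit Ppp3r1 had 46.4, 62.1 and 46.8 CPM in knockdown and 53.7, 49.3 and 52.2 CPM in WT, a log2 fold change of 0.00 (SE 0.12). On the same strand 14.3% of its exon bases overlap Wdr92.

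In PP4, 5 of 6 subunits were tested and 2 fell, both of them R3 subunits. In the same fit 19.6% of all tested genes were called lower. Ppp4r3a, the target of the knockdown, had a log2 fold change of -1.94 (SE 0.24, edgeR quasi-likelihood adjusted p = 8.22e-05). Ppp4r3b had 4.28, 6.53 and 4.83 CPM in knockdown against 10.4, 6.80 and 9.01 CPM in WT. Knockdown B and WT B lay next to each other, with 6.53 and 6.80 CPM. The log2 fold change of Ppp4r3b was -0.74 (SE 0.22, edgeR adjusted p = 0.0179). It no longer passed when knockdown A (edgeR adjusted p = 0.0616) or knockdown C (0.0726) was left out, nor when WT A (0.0633) or WT C (0.0595) was, nor with library totals (0.0819). The call was also lost with the library letter as a block and in limma on log2(FPKM + 1) without a filter. The coding sequences of this pair are 72.2% identical, and 9.51% of the exon bases of Ppp4r3a overlap the antisense gene D130020L05Rik, which had 114 counts.

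The R3 pair together summed to 0.948, 1.52 and 1.16 FPKM in knockdown, against 3.19, 2.21 and 2.73 FPKM in WT. Set against the catalytic subunit Ppp4c, that sum was 2.61 ± 0.872% of Ppp4c FPKM in knockdown and 5.06 ± 1.13% in WT (SD, n = 3 each). Both quantities did not overlap (exact permutation p = 0.1, 0.167 over the 5 sums compared). Both contain Ppp4r3a, the target of the knockdown, so a fall is in part built into the design. Ppp4c itself had 219, 187 and 206 CPM in knockdown and 219, 238 and 238 CPM in WT, and knockdown A stood level with WT A. Its log2 fold change was -0.18 (SE 0.08, edgeR adjusted p = 0.102, and 0.0438 without knockdown A).

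Ppp4r2, the core regulatory partner of Ppp4c and the R3 subunits, had 13.5, 26.4 and 20.1 CPM in knockdown and 16.7, 11.3 and 15.6 CPM in WT. Its log2 fold change was 0.46 (SE 0.22, edgeR adjusted p = 0.121, and 0.0191 without knockdown A). As a percent of Ppp4c FPKM it was 6.25 ± 2.48 in knockdown and 3.95 ± 0.918 in WT (exact permutation p = 0.3). Ppp4r1, which forms a separate complex with Ppp4c, had 53.5, 58.8 and 51.7 CPM in knockdown and 46.9, 49.7 and 51.6 CPM in WT. Those groups touched without overlap, at a log2 fold change of 0.15 (SE 0.09, edgeR adjusted p = 0.207).

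PP5 is a single chain, Ppp5c, whose own repeats bind the chaperone Hsp90. Ppp5c had 104, 97.5 and 103 CPM in knockdown against 87.6, 94.3 and 94.5 CPM in WT, without overlap, and its log2 fold change was 0.14 (SE 0.08, edgeR adjusted p = 0.166). None of the 4 PP6 subunits was called. The catalytic Ppp6c had 42.0, 33.3 and 36.7 CPM in knockdown and 39.6, 44.2 and 45.97 CPM in WT, a log2 fold change of -0.21 (SE 0.11, edgeR adjusted p = 0.143, and 0.0425 without knockdown A). Its SAPS-domain partners Ppp6r1, Ppp6r2 and Ppp6r3 had log2 fold changes of 0.07 (SE 0.08), 0.09 (SE 0.14) and 0.08 (SE 0.23), with overlapping groups. Ppp6r1 was the most abundant of them, at 31.0 ± 2.79 FPKM in knockdown and 29.7 ± 0.14 FPKM in WT (SD, n = 3 each).

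The ankyrin-repeat subunits that form the third component of PP6 carry other names, and 2 of the 3 fell, in a fit where 19.6% of all tested genes were called lower. Ankrd52 had 126, 110.3 and 109 CPM in knockdown against 179, 175 and 195 CPM in WT, a log2 fold change of -0.67 (SE 0.09, edgeR quasi-likelihood adjusted p = 9.76e-05). Ankrd44 had 3.66, 4.31 and 3.57 CPM in knockdown against 9.39, 7.22 and 7.004 CPM in WT, a log2 fold change of -1.03 (SE 0.20, edgeR adjusted p = 0.0014). Both were far apart between groups. Ankrd28 had 6.69, 13.8 and 8.40 CPM in knockdown and 12.5, 9.01 and 6.71 CPM in WT, with a log2 fold change of 0.03 (SE 0.28).

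Partners of the phosphatases without a Ppp name were followed in lists, in the same fit. Their counts stand against 20.5% of all tested genes called higher and 19.6% called lower, with a median log2 fold change of 0.01. No list was tested as a set against genes at large. Library totals, which called 3893 of 12269 genes higher and 1568 lower, changed the balance of several lists, as given with each. Of 13 tested PP1 partners 1 was higher and 4 were lower, with a median log2 fold change of -0.07. Akap1, which anchors PP1 and protein kinase A at mitochondria, fell by 0.86 on the log2 scale (SE 0.09, edgeR adjusted p = 1.48e-05). Tox4 and Wdr82 share a nuclear complex with PP1 and PNUTS (Ppp1r10) in human cells, and their log2 fold changes had opposite signs, at -0.60 (SE 0.09) and 0.41 (SE 0.09), both called. Tox4 lies on chromosome 14, with its median of -0.32.

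Among 17 tested genes of PP2A modification, assembly and inhibition 2 were higher and 2 lower (4 lower without WT B, 4 higher and 2 lower with library totals), with a median of -0.02. Bod1, an inhibitor of PP2A with B56 subunits at kinetochores, had 21.1, 21.01 and 20.4 CPM in knockdown against 48.9, 62.9 and 58.6 CPM in WT. Its log2 fold change of -1.45 (SE 0.11, edgeR adjusted p = 1.83e-06) was the largest fall in these lists. Tiprl, which binds the catalytic subunits of PP2A, PP4 and PP6, rose by 0.48 (SE 0.10). Anp32e, a histone chaperone and PP2A inhibitor, fell by 0.35 on the log2 scale (SE 0.08). In STRIPAK, the striatin-based PP2A complex with kinases, 12 genes were tested, with 2 higher and 3 lower (1 lower without knockdown C or without WT C) and a median of -0.17. Library totals turned this to 3 higher and 1 lower. The kinase Stk24 had a log2 fold change of -0.99 (SE 0.09) and lies on chromosome 14, while its relative Stk25 had 0.50 (SE 0.10) and the adaptor Sike1 0.62 (SE 0.08), all called.

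Of 9 tested calcineurin regulators and NFAT factors 2 were higher and 2 lower, with a median of 0.06. Without WT A 1 was higher, without knockdown C or WT B 1 was lower, and without WT C 1 was called in each direction. With library totals 4 were higher and 1 was lower. Rcan1, an inhibitor of calcineurin that NFAT itself induces, had 101, 84.4 and 84.1 CPM in knockdown against 28.0, 34.0 and 31.5 CPM in WT. It rose by 1.53 on the log2 scale (SE 0.11, edgeR adjusted p = 8.51e-07), well above the median of 0.40 on its chromosome 16. Its relative Rcan3 had a log2 fold change of -0.70 (SE 0.10), and Chp1, a calcineurin B homologue, one of -0.28 (SE 0.08), both called. The call of Chp1 was lost without knockdown C (edgeR adjusted p = 0.0965), WT B (0.059) or WT C (0.0713), with the library letter as a block (0.0661) and with library totals (0.186).

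Of 11 tested PP4 partners and substrates 3 were higher and 3 lower (1 lower without knockdown C or without WT C), with a median of 0.03. With library totals 6 were higher and 1 was lower. Rpa2, a replication protein that PP4 dephosphorylates in human cells, had 51.4, 41.4 and 53.9 CPM in knockdown against 80.4, 95.6 and 91.2 CPM in WT, a log2 fold change of -0.87 (SE 0.11, edgeR adjusted p = 8.62e-05). Ndel1, a dynein regulator, had 0.39 (SE 0.08), and Tiprl is counted here as well. Of 17 tested metal-dependent PPM phosphatases, which are unrelated in sequence to the PPP family, 1 was higher and 4 were lower, with a median of 0.03. These PPM counts became 3 higher and 3 lower without knockdown A, 2 and 3 without knockdown B or without WT B, and 1 and 2 without knockdown C or without WT C. They were 3 and 4 with upper quartile scaling, and with library totals the balance turned to 4 higher and 0 lower. The mitochondrial Pptc7 had a log2 fold change of -0.53 (SE 0.13), Ppm1d (Wip1), which reverses DNA damage signals, -0.49 (SE 0.13), and Ppm1f 0.29 (SE 0.08), all called. The calls of Pptc7 and Ppm1d were lost with library totals (edgeR adjusted p = 0.0518 and 0.0684). Ppm1f lies on chromosome 16 and stood below the median of 0.40 there, and its call was lost with the letter as a block (edgeR adjusted p = 0.0652) and in limma on log2(FPKM + 1) without a filter (0.0618). Of the PPP phosphatases with EF hands, Ppef1 had 0 counts and Ppef2 at most 7 counts in a library, and neither was tested.

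In the A and B libraries of both groups the members deviated from their group mean in step with the length of the gene. Spearman's rho between deviation and length over the 53 members, given without a test because all points share a library, was -0.59 in knockdown A, 0.65 in knockdown B and -0.09 in knockdown C. It was 0.49 in WT A, -0.56 in WT B and 0.03 in WT C. Long members thus read low in knockdown A and WT B and high in knockdown B and WT A. Because deviations are from the group's own mean, A and B must take opposite signs where C is nearly flat. The A and B libraries of a group are therefore not separate observations. Over all tested genes rho had the same signs in these 4 libraries, at -0.24, 0.36, 0.34 and -0.36 for knockdown A, knockdown B, WT A and WT B. Ppp4r3a, Ppp4r3b, Ppp4r2 and Ppp1cb show this spread in the values above. A fit with the main axis of the deviations as a covariate, chosen after seeing the data, called 11 members higher and 19 lower. The share of all genes called was 56.0%, against 40.1% in the main fit. That axis is drawn from the spread within groups of these same libraries, so it takes up that spread by construction. Its added calls are therefore no separate evidence.

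**Figure D5:**
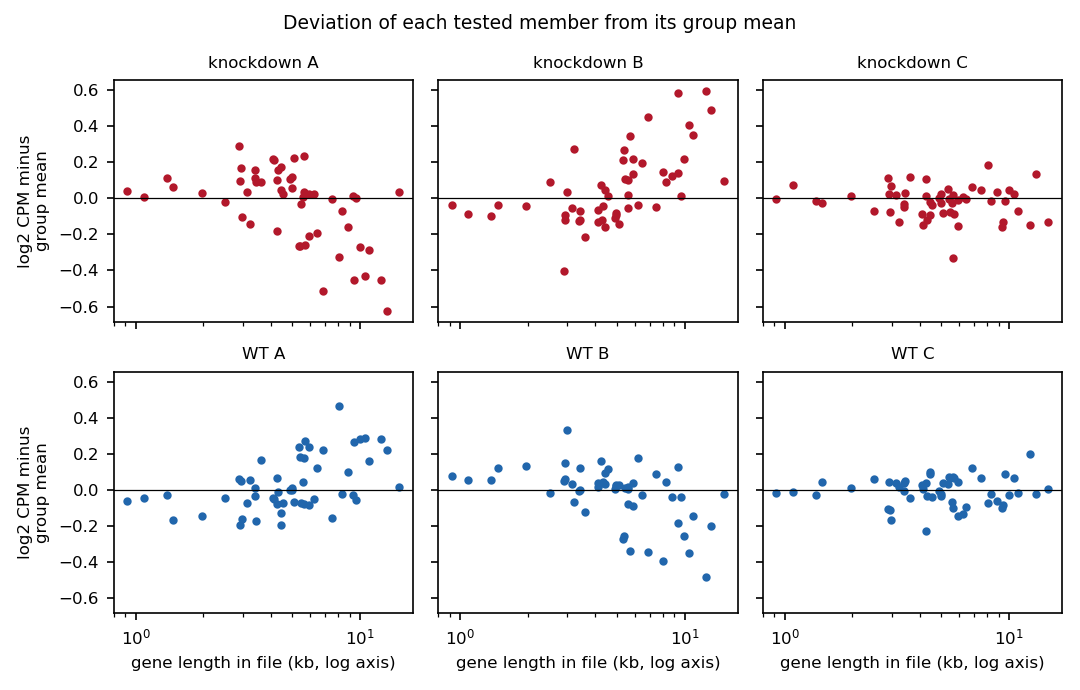
Deviation of log2 CPM from the group mean (y axis) against gene length (x axis, kb, log axis) for the 53 tested members, 1 panel per library, with knockdown above WT. Points fall with length in knockdown A and WT B (rho -0.59 and -0.56), climb in knockdown B and WT A (0.65 and 0.49), and stay flat in both C libraries.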

How the data were processed

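Whole-number counts per gene and FPKM values of 6 libraries were used as the authors deposited them. By their own values, the deposited FPKM are counts over gene length and over a constant per library, 0.911 to 1.12 times its total. The build was GRCm38 (mm10), per the submitters' processing notes. The aligner, counter, strand setting and gene annotation were not given in the sources used here. Genes were kept by filterByExpr, scaled by TMM and compared, without covariates, with glmQLFit and glmQLFTest of edgeR 4.0.16 in R 4.3.3 over all 12269 genes, with Benjamini-Hochberg adjustment and calls at an adjusted p under 0.05. An SE is the size of the fold change over the square root of F. Shares and sums of FPKM were compared by exact permutation tests, two-sided. The procedure was tested on simulated data.

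Alternatives were DESeq2 1.42.0 and its size factors, upper quartile and library totals, other count filters, limma-voom and limma 3.58.1 on log2(FPKM + 1) or log2(FPKM + 0.1), protein-coding genes alone, a block for the library letter, stricter thresholds and each library left out. A covariate from the residuals was added after seeing the data. Members, lists, tests and the rule for named genes (all tested subunits but uncalled regulatory subunits of PP1, and the 3 smallest adjusted p of each list) were chosen with earlier results of these data known. Coding sequences and exon overlaps come from GENCODE M21, in which 71 of 75 members have the coordinates of the file, and were aligned with Biopython 1.88. Promoters come from RefSeq. Intervals and floors cover counting error only, at 18036591 to 21131557 counts per library. Protein sequences were not used here.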

Additional observations from a re-analysis of the deposited data

Results flagged for a closer look

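Of the 12 rows with a member-like symbol and another biotype, 2 passed the filter on low counts and were tested. In both, signal in the deposited counts lay outside the comparisons of protein-coding members and was called higher in knockdown. The transcribed pseudogene Ppp1ccb had 477, 601 and 569 counts in knockdown and 321, 369 and 340 counts in WT, a log2 fold change of 0.38 (edgeR quasi-likelihood adjusted p = 0.0237, Benjamini-Hochberg). Its copy of the Ppp1cc coding sequence is identical, and Ppp1cc itself had a log2 fold change of 0.39. How reads were split between the pair was not tested. Ppp4r1l-ps, a transcribed pseudogene related to Ppp4r1, had 141, 250 and 201 counts in knockdown and 113, 74 and 70 counts in WT, a log2 fold change of 0.91 (edgeR adjusted p = 0.0056). Each knockdown library lay above each WT library in both genes after scaling.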

How the results depend on the processing

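Across 73 genes followed over 21 alternatives, 1375 of 1528 values kept their direction and their side of the threshold, 64 calls were lost, 53 were gained and 36 values changed sign. Against 5 members called higher, upper quartile scaling gave 8, library totals 14, keeping genes with 1 count in any library 9, limma on log2(FPKM + 1) without a filter 1, an adjusted p under 0.01 gave 3, and the test against a fold of 1.5 gave 0 (2 lower, against 8). The residual covariate, chosen after seeing the data, gave 11 higher and 19 lower, with 56.0% of all genes called. It takes up spread within groups by construction, and the main fit called 40.1% of all genes. Leaving out 1 library gave 4 to 7 higher and 7 to 13 lower. With the replicate block 3 were higher and 6 lower. The letters were not taken as pairs: deviations of same-lettered libraries correlated at -0.36, -0.33 and 0.00, and no knockdown library correlated best with the WT library of its letter.

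Values that changed sign belonged to genes not called in either fit. With library totals they were 0.041 for Ppp1ca, 0.091 for Ppp2r5a, 0.13 for Ppp2r5d, 0.0703 for Ppp3cb, 0.14 for Ppp1r12c, 0.0193 for Ppp1r11, 0.0317 for Ppp1r8 and 0.0968 for Ppp1r7. Ppp3r1 gave -0.0105 with DESeq2 size factors, -0.0116 with DESeq2, -0.0104 with limma-voom, -0.0121 with the replicate block, -0.00698 with the residual covariate, and -0.0207 (pseudocount 1, with or without a filter) or -0.0224 (pseudocount 0.1) in limma on FPKM. With 1 count in any library Ppp2r5d gave 0.0031 and Ppp1r12c 0.0103, and with upper quartile scaling Ppp1r12c gave 0.0068. Leaving out 1 library moved Ppp3r1 between -0.13 and 0.077, Ppp2r5d between -0.10 and 0.058, Ppp2r5e between -0.045 and 0.21, Ppp6r3 between -0.25 and 0.28, Ankrd28 between -0.30 and 0.29, Ppp1r12a between -0.0599 and 0.39, Ppp1r12c between -0.041 and 0.043, Ppp1r13b between -0.034 and 0.087, and Ppp1r7 between -0.27 and 0.13. The cause of these changes was not tested. Shares of isoforms were the same from TPM, since FPKM and TPM are proportional within a library. With 3 libraries per group, exact tests could not reach 0.05, and genes under the filter were not tested.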
